A study of Homo sapiens with 12 samples.

Results

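Protein kinase A and the CREB transcription factors were followed through 10 genes, namely GNAS, PRKAR1A, PRKAR1B, PRKAR2A, PRKACA, PRKACB, CREB1, CREM, ATF1 and CREBBP. All array probes listed under one of these symbols were taken, which gave 22 of 48803 probes, for 9 of the 10 genes. No probe was listed under ATF1 in the annotation used here, and no value is given for it. Of the 22 probes, 10 probes of 7 genes were detected often enough to be tested (detection p under 0.01 in at least 3 of the 12 arrays), against 15444 probes in all. The study named PRKAR1A, CREB1 and GNAS as responding to ALKBH7 from these same samples, so their values here are not independent evidence.

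The cells were HEK293, a human embryonic kidney cell line, carrying either a FLAG-tagged ALKBH4 or a FLAG-tagged ALKBH7 inserted at one genomic locus under control of a promoter that tetracycline derivatives switch on. Both are AlkB homologues, dioxygenases that use iron and oxoglutarate, and expression was profiled to see what overproduction of either protein does to transcription. The 4 groups, of 3 arrays each, were the ALKBH4 line without and with 2 µg/ml doxycycline, and the ALKBH7 line without and with the same dose. Stable lines were expanded from single resistant colonies, and all 4 groups share the same host line and selection. Induced arrays differ from uninduced arrays in doxycycline as well as in the transgene, and these cannot be told apart within a line. Whether the arrays of a group came from separate cultures is not given in the labels, and p-values here then cover only the spread among these samples, which may be technical.

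Protein kinase A is held inactive by regulatory subunits bound to its catalytic subunits. When a receptor activates the stimulatory G protein, whose alpha subunit GNAS encodes, adenylyl cyclase makes cyclic AMP, which binds the regulatory subunits and releases the catalytic ones. These phosphorylate CREB1 and its relatives CREM and ATF1, which bind the cAMP response element in promoters and recruit the coactivator CREBBP. In male germ cells CREM drives many genes of spermatid formation, whereas CREB1 acts in most tissues.

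The ALKBH7 transgene was visible on the arrays, with log2 intensities of 9.32 ± 0.30 uninduced and 13.04 ± 0.24 induced (SD, n = 3), a 13.2-fold difference with a limma adjusted p of 1.01e-07. The ALKBH4 probe was at 7.67 ± 0.20 and 7.56 ± 0.27 in the ALKBH4 line, and since the study places this probe outside the transgene it does not check the induction. Between 25.3% and 30.7% of probes were detected per array. Median raw intensities were 45.6 to 61.6 in the ALKBH4 line and 98.8 to 121 in the ALKBH7 line, before normalization. Of 8 markers of HEK293 cells 7 were tested, and NEFM was not, while of 10 markers of other cells only COL1A1 was tested and 7, including PTPRC, HBB and the germ cell genes PRM1 and TNP1, were never detected. Uninduced replicate 1 of the ALKBH7 line stood apart. Its mean correlation across all tested probes was 0.94 with its own group and 0.967 with the induced arrays of that line. For the tested probes of these genes, values without it are given where they change a call. For other genes of the pathway, list counts or only some of the genes are given without it. Precision is limited by the number of arrays, 3 in each group.

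Induction of ALKBH7 was accompanied by higher signal at all 3 tested CREB1 probes and at 1 of the 2 tested PRKAR1A probes. In all, 4 of the 10 probes (40%) passed the test, 4 higher and 0 lower, whereas 24% of all tested probes passed, 11.8% higher and 12.2% lower. The median log2 fold change was -0.1 over the 10 probes and 0.02 over all probes. Values of induced arrays were separate from those of uninduced arrays, without overlap, at 4 of the 10 probes and at 36.7% of all probes. Leaving out uninduced replicate 1 gave 7 called probes among the 10, with 44.3% of all probes, and leaving out induced replicate 2 gave 0, with 8.28% of all probes. Scaling arrays to a common median in place of quantile normalization also gave 0, with 1 call over all probes, and rank product gave 1, PRKAR1A ILMN_2389590. In bulk RNA, fewer cells with a transcript and less transcript per cell cannot be told apart. In the ALKBH4 line 0 of the 10 probes passed, as did 0% of all probes, and the lowest adjusted p among the 10 was 0.999. At an unadjusted p under 0.05 there were 376 probes (2.43%) in that line and none of the 10 was among them, the lowest unadjusted limma p being 0.0863, at CREB1. Rank product, the test of the study, was rerun here and called 6 probes in all in the ALKBH4 line. The study itself reported more genes than this for that line. The groups of the ALKBH4 line did not overlap at 1 of the 10 probes, against 10% of all probes.

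**Figure D1:**
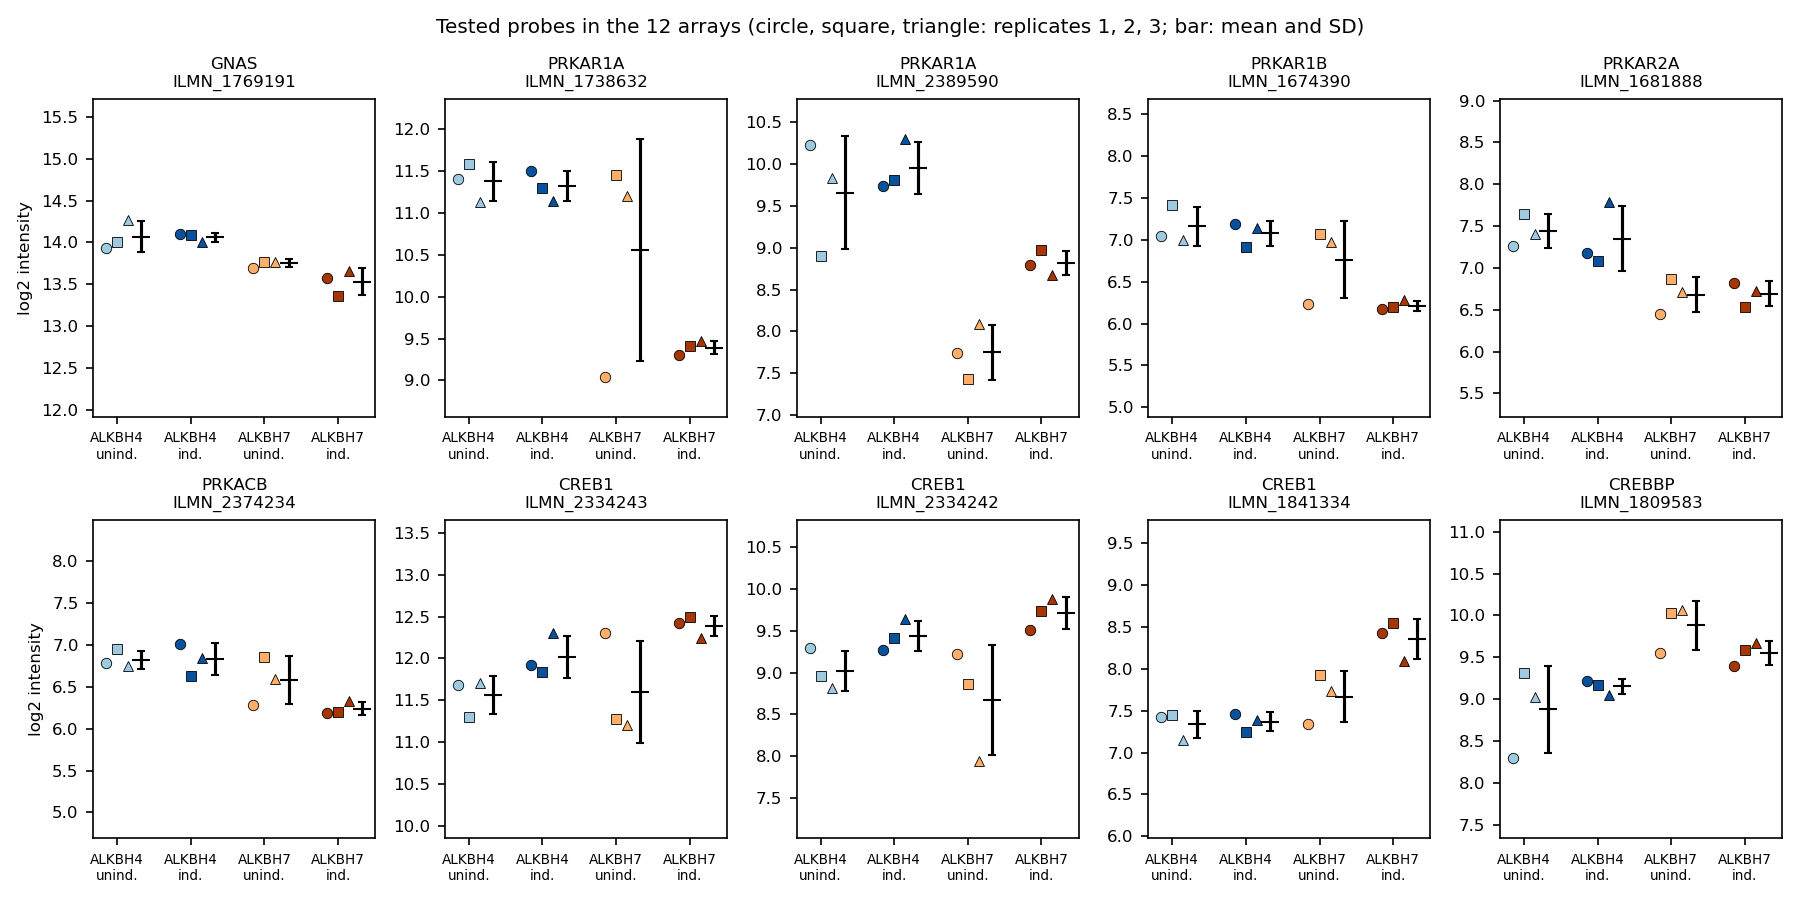
Log2 intensity (vertical axis, each panel spanning the same range of log2 units) of the 10 tested probes in the 4 groups (horizontal axis), with circles, squares and triangles for replicates 1, 2 and 3 and a bar for the group mean and SD. In the third group, the uninduced ALKBH7 line, the circle at PRKAR1A ILMN_1738632 lies at 9.04 while the square and triangle lie at 11.45 and 11.2.

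GNAS, which encodes the G protein alpha subunit, was detected on all 12 arrays by its main probe. GNAS ILMN_1769191 read 13.93, 14 and 14.27 in the uninduced and 14.1, 14.09 and 14 in the induced ALKBH4 line, and 13.69, 13.77 and 13.77 uninduced against 13.57, 13.36 and 13.66 induced in the ALKBH7 line. The arrays of the ALKBH7 line did not overlap, all induced arrays being lower, but the difference of -0.22 ± 0.13 (log2, SE) did not pass, with a limma adjusted p of 0.231. This difference turned positive, to 0.27 with an adjusted p of 0.67, when arrays were scaled to a common median instead of quantile normalized. The other GNAS probes, which are assigned to alternative first-exon transcripts of this imprinted locus, were detected on 2 and 0 of the 12 arrays, at log2 intensities of 5.78 to 6.73.

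PRKAR1A encodes the type I alpha regulatory subunit, which restrains the kinase and which in people is mutated in Carney complex. The gene lies at chr17:68413623-68551316 in GRCh38.p14. A piece of its promoter is shown because it holds a full cAMP response element, the sequence to which CREB1, CREM and ATF1 bind, as does one promoter of CREM. Each line gives the last 150 bases before an annotated RefSeq start in GRCh38.p14, plus strand, with TGACGTCA in capitals.
PRKAR1A, chr17:68512280-68512429: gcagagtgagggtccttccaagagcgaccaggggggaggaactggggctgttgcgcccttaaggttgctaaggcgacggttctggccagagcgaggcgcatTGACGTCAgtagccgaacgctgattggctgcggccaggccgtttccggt
CREM, chr10:35195752-35195901: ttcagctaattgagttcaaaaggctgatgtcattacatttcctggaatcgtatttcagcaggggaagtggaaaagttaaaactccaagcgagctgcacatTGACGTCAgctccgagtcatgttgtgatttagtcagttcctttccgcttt
In PRKAR1A 41 bases and in CREM 42 bases separate the end of the element from the start.

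TGACGTCA, which reads the same on both strands, occurred in 649 of 35116 promoter windows (1.85%), each running from 250 bases before to 50 bases after a start. Counted by gene, 614 of 27305 genes (2.25%) and 2 of these 10, PRKAR1A and CREM, had it in some window. In each of these genes the site shown above falls in 2 overlapping windows. In this way 4 of the 38 windows of the 10 genes contained the sequence. Relative to the start of the other window the site begins at base 3 after the start. Only the windows were searched, not the rest of the genes. The shorter TGACG, searched on both strands and contained in the full element, was found in 24.6% of all windows and in 16 of the 38 (42.1%). The windows of CREB1 and ATF1 held neither sequence, which says only that these letters are not in these windows.

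The 2 tested PRKAR1A probes, both assigned to the same reference transcript, moved in opposite directions in the ALKBH7 line. ILMN_2389590 read 7.74, 7.43 and 8.09 uninduced and 8.8, 8.97 and 8.68 induced. All induced arrays were above all uninduced arrays, and the rise was 1.06 ± 0.28 on the log2 scale (2.09-fold, adjusted p = 0.0178). In raw intensity the same arrays gave 205, 187 and 439 against 491, 589 and 598.

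ILMN_1738632 read 9.04, 11.45 and 11.2 uninduced and 9.3, 9.41 and 9.47 induced, with raw intensities of 461, 2030 and 3240 against 704, 803 and 1060. Uninduced replicate 1 lay below every induced array, whereas the other uninduced arrays lay far above them. The difference over all arrays was -1.17 ± 0.44 and did not pass (adjusted p = 0.0685). Without uninduced replicate 1 it was -1.93 ± 0.15 (adjusted p = 1.3e-06), and with replicate 1 as the sole uninduced array it was 0.36. This probe's direction thus rested on which uninduced arrays were used. At ILMN_2389590 replicate 1 lay between the other uninduced arrays, and the rise was 1.07 without it and 1.09 with it as the sole uninduced array. That rise lost its call without uninduced replicate 2 (0.91, adjusted p = 0.0731), induced replicate 1 (1.07, adjusted p = 0.0581) or induced replicate 2 (0.99, adjusted p = 0.0758), and with median scaling (1.02, adjusted p = 0.24). The remaining PRKAR1A probe, ILMN_2277077, was detected on 0 of 12 arrays.

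The disagreement was tested directly as the change in the per-array difference between both probes. The log2 difference of ILMN_1738632 from ILMN_2389590 was 1.3, 4.02 and 3.11 in the uninduced and 0.51, 0.45 and 0.79 in the induced ALKBH7 arrays. The groups did not overlap, and the responses differed by -2.23 ± 0.56 (limma over all probe pairs, adjusted p = 0.0103). In the ALKBH4 line the same difference was 1.17, 2.69 and 1.3 uninduced and 1.76, 1.49 and 0.84 induced, a change of -0.36 ± 0.56 (adjusted p = 0.969). With that line fitted alone the change was -0.37 ± 0.37 (adjusted p = 0.87). The change in the ALKBH7 line was not shown to differ from that in the ALKBH4 line (-1.87 ± 0.79, adjusted p = 0.206). It was -3 without uninduced replicate 1 (adjusted p = 3.12e-05) and -0.73 with that array as the sole uninduced one.

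Disagreement between probes of one gene was common in the ALKBH7 line. Of the 4 testable pairs of probes within these genes, 1 passed, the PRKAR1A pair, and 37.1% of all 3343 pairs passed, with 0% in the ALKBH4 line. Called probes in both directions were found in 47 of 2336 genes with at least 2 tested probes (2.01%), and 4 genes (0.171%) had one probe above +1 and another below -1 on the log2 scale. PRKAR1A had this second pattern, with a decrease that did not pass the test.

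**Figure D2:**
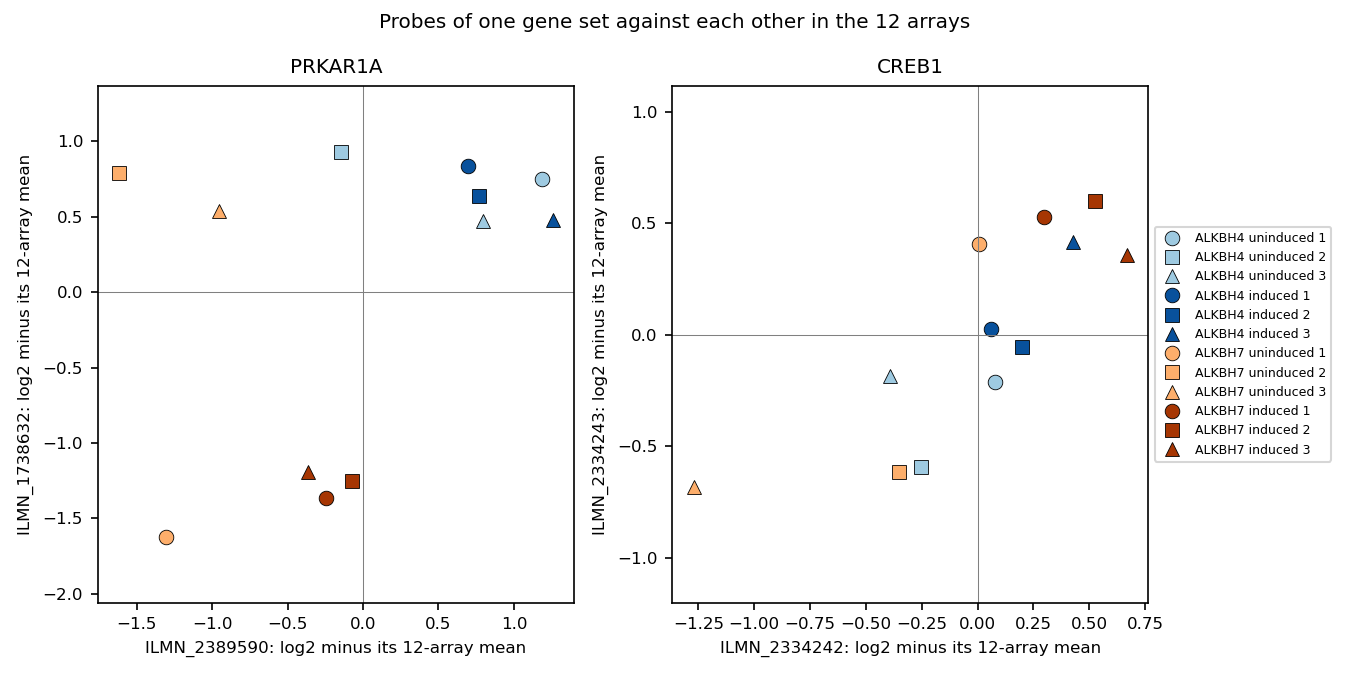
Log2 intensity of one probe against another probe of the same gene, each minus its own mean over 12 arrays, for PRKAR1A (left) and CREB1 (right), with colours for groups and shapes for replicates. At PRKAR1A the induced ALKBH7 arrays lie together at the lower middle and the uninduced arrays of that line are split between top and bottom. The CREB1 points, ILMN_2334243 against ILMN_2334242, run from lower left to upper right (r = 0.81). The CREB1 pairs with ILMN_1841334, which are not drawn, had r = 0.39 and 0.3.

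The other regulatory subunits were not detected on every array. PRKAR1B, the neuronally enriched type I beta subunit, read 6.23, 7.07 and 6.98 uninduced and 6.17, 6.2 and 6.28 induced in the ALKBH7 line. It was detected on 2 of 3 uninduced and 0 of 3 induced arrays, so the induced level is only bounded and no fold is given. The fitted difference was -0.54 ± 0.20 (adjusted p = 0.0598), and without uninduced replicate 1, which again sat with the induced arrays, it was -0.83 (adjusted p = 0.000434). It also passed with cyclic loess (adjusted p = 0.0481) and with a trended, robust variance (adjusted p = 0.0423). In the ALKBH4 line it was detected on all 6 arrays, at 6.91 to 7.42.

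PRKAR2A, the type II alpha subunit, read 6.45, 6.87 and 6.71 uninduced and 6.82, 6.53 and 6.72 induced in the ALKBH7 line. These arrays overlapped, with a difference of 0.01 ± 0.19 and a 95% interval from -0.4 to 0.42.

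The catalytic subunits, which carry out the phosphorylation, were near the detection limit. PRKACB ILMN_2374234 read 6.28, 6.86 and 6.59 uninduced and 6.19, 6.2 and 6.33 induced in the ALKBH7 line, and was detected on 1 and 0 of the 3 arrays. Its difference of -0.34 ± 0.15 did not pass (adjusted p = 0.122), and it was -0.5 without uninduced replicate 1 (adjusted p = 0.0112), again with no fold. The other 4 PRKACB probes were detected on 0 of 12 arrays. The PRKACA probes were detected on 2 arrays, both from the uninduced ALKBH7 line, and on 0 arrays, at log2 intensities of 6.05 to 6.88, and were not tested.

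CREB1, the transcription factor at the end of the cascade, rose at every probe that could be tested. ILMN_2334242 read 9.22, 8.86 and 7.94 uninduced and 9.51, 9.74 and 9.88 induced in the ALKBH7 line. The groups did not overlap, and the rise was 1.04 ± 0.26 (log2, SE), or 2.05-fold, with an adjusted p of 0.0136. It was 1.32 without uninduced replicate 1 (adjusted p = 0.000385) and 0.5 with that array as the sole uninduced one. The rise lost its call with median scaling (adjusted p = 0.171), with each line fitted alone (adjusted p = 0.0627) and without induced replicate 2 (adjusted p = 0.057).

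ILMN_2334243, assigned to the same transcript, read 12.3, 11.28 and 11.21 uninduced and 12.42, 12.49 and 12.25 induced. Uninduced replicate 1 lay among the induced arrays, so that the groups overlapped. The rise was 0.79 ± 0.25, or 1.73-fold (adjusted p = 0.0342), and became 1.14 (adjusted p = 9.53e-05) without replicate 1 and 0.08 with it as the sole uninduced array. Its call was lost in 9 of 23 alternatives, among them each other array of the ALKBH7 line left out in turn.

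ILMN_1841334, assigned to a complementary DNA clone of CREB1, read 7.34, 7.93 and 7.73 uninduced and 8.43, 8.55 and 8.09 induced. The groups did not overlap, with a rise of 0.69 ± 0.17 or 1.61-fold (adjusted p = 0.0129). Here replicate 1 was the lowest uninduced array, and the rise was 0.53 without it (adjusted p = 0.0127) and 1.03 with it as the sole uninduced array. Its call was lost in 4 of 23 alternatives, which were median scaling, each line alone, and leaving out induced replicate 1 or induced replicate 2. The responses of the 3 CREB1 probes were not shown to differ in pairs (differences of -0.25 ± 0.23, 0.1 ± 0.34 and 0.35 ± 0.34, adjusted p = 0.417, 0.835 and 0.427). Without uninduced replicate 1, however, both pairs with ILMN_1841334 passed (0.61 and 0.79, adjusted p = 0.0215 and 0.0152). In that setting 44.3% of all probes passed, and the share of all pairs was not counted. The remaining CREB1 probe was detected on 1 of 12 arrays.

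The same CREB1 probes in the ALKBH4 line read 11.68, 11.3 and 11.71 uninduced and 11.92, 11.84 and 12.31 induced at ILMN_2334243. This was the probe whose ALKBH4 groups did not overlap, with a difference of 0.46 ± 0.25 (adjusted p = 0.999). At ILMN_2334242 the ALKBH4 arrays read 9.29, 8.96 and 8.82 uninduced and 9.27, 9.41 and 9.64 induced, a difference of 0.42 ± 0.26 with overlapping groups. At ILMN_1841334 the difference was 0.03 ± 0.17.

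CREBBP, the acetyltransferase that phosphorylated CREB1 recruits, read 9.55, 10.03 and 10.06 uninduced and 9.4, 9.59 and 9.67 induced in the ALKBH7 line at ILMN_1809583. The groups overlapped and the difference of -0.33 ± 0.22 did not pass (adjusted p = 0.288). Its second probe was detected on 2 of 12 arrays. CREM, at chr10:35126846-35212958, was detected on 0 of 12 arrays at log2 intensities of 5.98 to 6.43, and was not tested.

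**Figure D3:**
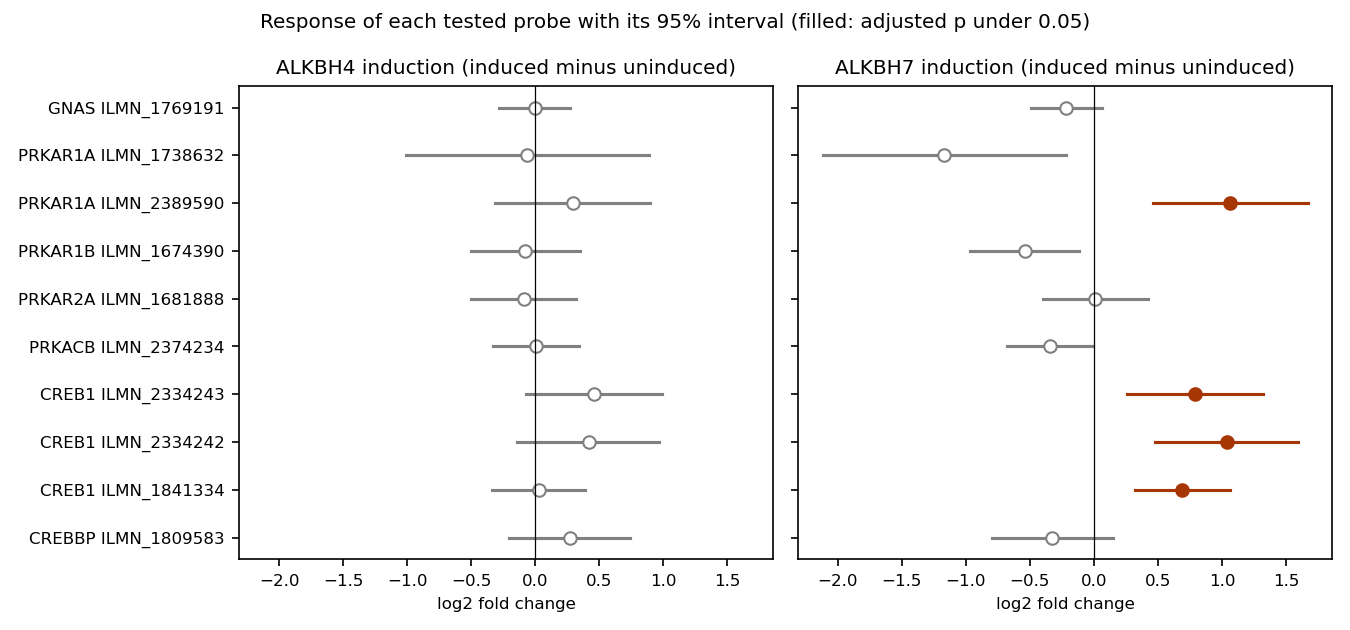
Log2 fold change, induced minus uninduced (horizontal axis), of each tested probe (vertical axis) with its 95% interval, for the ALKBH4 line (left) and the ALKBH7 line (right). Filled points passed an adjusted p of 0.05, which were the 3 CREB1 probes and PRKAR1A ILMN_2389590 on the right and none on the left.

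Whether the responses of the lines differed was tested as an interaction. None of the 10 probes passed, and 0.0712% of all probes did (11 of 15444). CREB1 ILMN_1841334 came nearest, with a response 0.66 ± 0.24 higher in the ALKBH7 line (adjusted p = 0.192). Without uninduced replicate 1 of the ALKBH7 line 4 of the 10 passed, with 21.7% of all probes. They were PRKAR1A ILMN_1738632 (-1.88 ± 0.21, adjusted p = 0.000111), PRKAR1B (-0.76 ± 0.20, adjusted p = 0.0138), and CREB1 ILMN_2334243 (0.69 ± 0.22, adjusted p = 0.038) and ILMN_2334242 (0.9 ± 0.3, adjusted p = 0.048). The rise of PRKAR1A ILMN_2389590 was not shown to differ from its 0.3 ± 0.28 in the ALKBH4 line (0.76 ± 0.40, adjusted p = 0.346).

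**Figure D4:**
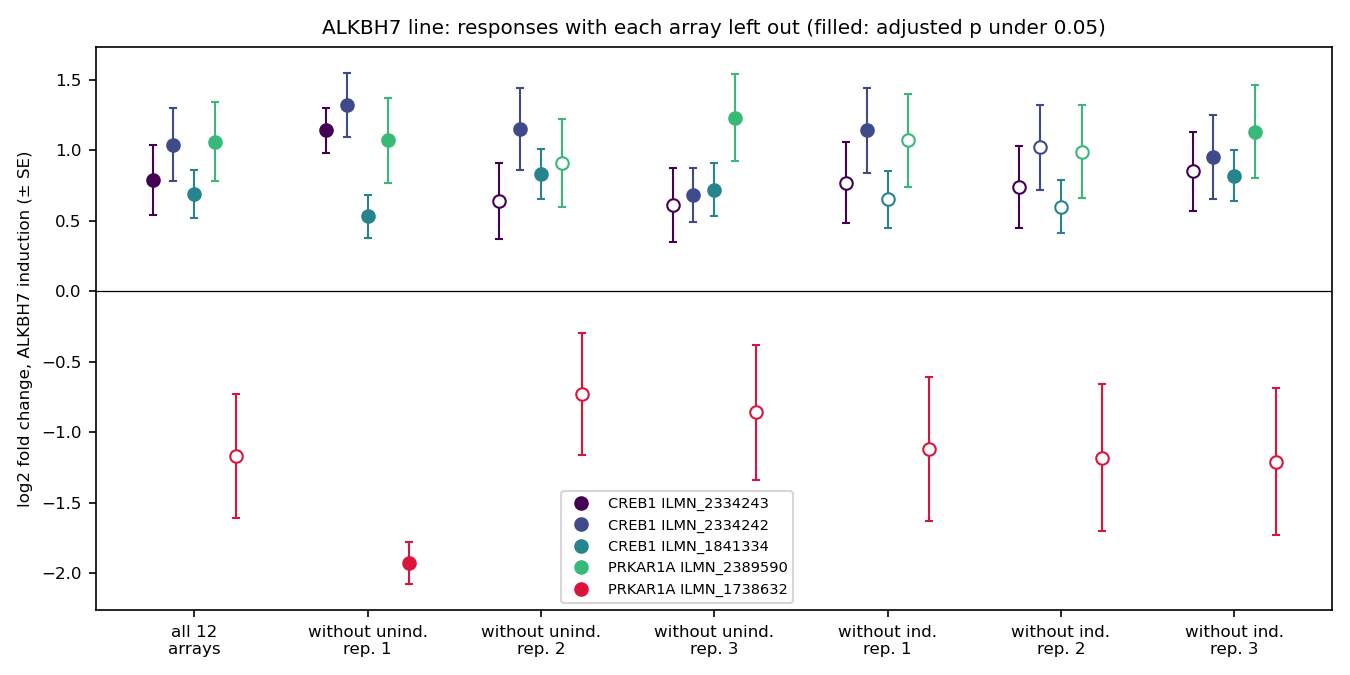
Log2 fold change on ALKBH7 induction (vertical axis, ± SE) of the CREB1 and PRKAR1A probes with all 12 arrays and with each array of the ALKBH7 line left out (horizontal axis), filled where the adjusted p was under 0.05. PRKAR1A ILMN_1738632 passed only without uninduced replicate 1, at -1.93, and without induced replicate 2 no probe shown passed.

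The lines were also compared before induction, where many probes differed. In the uninduced ALKBH7 line 3 of the 10 probes (30%) differed from the uninduced ALKBH4 line, against 38.4% of all probes. Of these, 2 were lower, against 18.5% of all probes, and 1 was higher. Line, array processing and transgene level cannot be told apart here. The ALKBH7 probe itself read 7.8 ± 0.05 in the uninduced ALKBH4 line and 9.32 ± 0.3 in the uninduced ALKBH7 line (SD). The cause of that difference was not tested. Without uninduced replicate 1 of the ALKBH7 line 5 of the 10 passed, against 42.2% of all probes, the added ones being CREB1 ILMN_1841334, higher in the ALKBH7 line (0.5, adjusted p = 0.0189), and CREB1 ILMN_2334242, lower there (-0.63, adjusted p = 0.0377). PRKAR1A ILMN_2389590 read 10.23, 8.9 and 9.84 in the uninduced ALKBH4 line, above all ALKBH7 uninduced arrays, and was 3.74-fold lower in the ALKBH7 line (-1.9 ± 0.28, adjusted p = 0.000316). This comparison shares its uninduced ALKBH7 arrays with the induction of that line. After induction the ALKBH7 arrays, at 8.68 to 8.97, were below 5 of the 6 ALKBH4 arrays and reached the lowest of them.

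PRKAR2A read 7.26, 7.65 and 7.4 in the uninduced ALKBH4 line and was lower in the ALKBH7 line (-0.76 ± 0.19, adjusted p = 0.00746). It was detected on 3 uninduced ALKBH4 arrays but only 2 uninduced ALKBH7 arrays, so no fold is given. Its raw intensities were 81.1, 156 and 131 against 107, 136 and 150, so the difference appeared only after normalization. CREBBP read 8.3, 9.31 and 9.02 in the uninduced ALKBH4 line and was 2-fold higher in the ALKBH7 line (1 ± 0.22, adjusted p = 0.00365). With median scaling 2 of the 10 probes passed and 0 were higher, against 9.05% of all probes, so CREBBP lost its call. Its difference was 1.17 without uninduced replicate 1 of the ALKBH7 line and 0.69 with that array as the sole uninduced one of its line. GNAS did not overlap between the uninduced lines but did not pass (-0.32 ± 0.13, adjusted p = 0.062). At PRKAR1A ILMN_1738632 the ALKBH4 arrays read 11.41, 11.59 and 11.13 uninduced and 11.5, 11.3 and 11.14 induced, and the uninduced ALKBH7 replicates 2 and 3 lay in this range.

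Across the 12 arrays, PRKAR1A ILMN_1738632 varied with PRKAR1B (r = 0.97) and PRKACB (r = 0.93) and less with its own partner probe ILMN_2389590 (r = 0.37). Low correlation within a gene was also seen at CREB1. There ILMN_1841334 had r = 0.39 with ILMN_2334243 and r = 0.3 with ILMN_2334242, and the latter probes had r = 0.81 with each other. These correlations describe 12 arrays that share lines, treatments and the array that stood apart. The genes whose probes were most like ILMN_1738632 were CPEB2 (r = 0.992), TIA1 (r = 0.991), CD302 (r = 0.99), OAT (r = 0.989) and CKAP2 (r = 0.988). For ILMN_2389590 they were NEK2 (r = 0.991), PHAX (r = 0.99), UBE4A (r = 0.989), EIF3M (r = 0.988) and PPP2R3C (r = 0.986). The probes of PRKAR1A shared none of their 5 nearest genes, but how often this holds for other pairs of probes was not counted.

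Other genes of the pathway were read at the brightest tested probe of each gene, where 12.4% of all 10159 named genes were higher and 10.4% lower on ALKBH7 induction, with a median of 0.05. In every list 0 genes passed in the ALKBH4 line. Of cAMP synthesis and G protein input, 15 of 22 listed genes were tested, with 1 higher and 1 lower. GNAI2, an inhibitory G protein alpha subunit, rose by 0.58 ± 0.18 on the log2 scale, but by 0.25 with uninduced replicate 1 as the sole uninduced array. The lower gene, PTGER2, a prostaglandin E2 receptor coupled to the stimulatory G protein, was detected on 0 arrays of the ALKBH7 line, and no size is given. Without replicate 1 the list gave 1 higher and 2 lower, with 23.7% and 20.2% of all named genes. Of the phosphodiesterases that degrade cAMP, 7 of 16 were tested, with 1 higher and 1 lower. PDE8B read 9.01, 8.96 and 8.74 uninduced and 9.67, 9.82 and 9.83 induced (0.87 ± 0.14, adjusted p = 0.00224). PDE4D read 6.47, 8.27 and 8.13 uninduced and 6.4, 6.44 and 6.64 induced (adjusted p = 0.0321). It was detected on 2 uninduced and 0 induced arrays, and was at least 1.76-fold lower when induced arrays were set to the lowest signal detected on them. As at PRKAR1A ILMN_1738632, uninduced replicate 1 of PDE4D lay with the induced arrays, and with it as the sole uninduced array the fitted difference was 0.02. Without it the 7 phosphodiesterases gave 2 higher and 3 lower, with 23.7% and 20.2% of all named genes.

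A-kinase anchoring proteins, which tether the kinase to sites in the cell, gave 1 higher and 2 lower among 11 tested of 19. EZR, the membrane linker ezrin, rose by 0.55 ± 0.14 (adjusted p = 0.0178), AKAP8L fell by 0.46 (adjusted p = 0.0278) and AKAP11 fell by 0.93 (adjusted p = 0.0178), although another AKAP11 probe gave 0.1. AKAP11 was at -1.33 without uninduced replicate 1 (adjusted p = 9.73e-06) and at -0.17 with it as the sole uninduced array. Without replicate 1 the anchoring proteins gave 1 higher and 4 lower, with AKAP10 (-1.11) and AKAP7 (-0.39) added. In that setting 23.7% of all named genes were higher and 20.2% lower.

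The kinase inhibitor genes PKIA (0.29) and PKIB (-0.41), the tested members among 6 further subunits and inhibitors, did not pass. PKIB passed without uninduced replicate 1 (-0.57, adjusted p = 0.0077), and PKIA was at 0.6 with that array as the sole uninduced one. RAPGEF3, which encodes the cAMP sensor Epac1, fell by 0.92 (SE 0.27, adjusted p = 0.0262) from 8.82, 7.54 and 7.61 to 7.16, 6.94 and 7.09. Here uninduced replicate 1 was the highest array, and the difference was -0.52 without it (adjusted p = 0.0158) and -1.78 with it as the sole uninduced array.

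Among 10 tested coactivators and regulators of CREB, 0 were higher and 1 was lower. CRTC1, a coactivator that cAMP signalling releases to the nucleus, read 7.18, 7.41 and 7.53 uninduced and 6.29, 6.07 and 6.67 induced (adjusted p = 0.00149). It was detected on 3 uninduced and 0 induced arrays, and was at least 1.48-fold lower. Without uninduced replicate 1 the list gave 0 higher and 4 lower (40%, against 20.2% of all named genes), with EP300 (-0.92), CREB3L2 (-0.68) and ATF2 (-1.02) beside CRTC1.

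Known CREB target genes gave 0 higher and 5 lower among 17 tested of 25, with a list median of -0.05. FOS read 8.18, 8.91 and 8.86 uninduced and 7.55, 7.41 and 7.68 induced (-1.1 ± 0.18, adjusted p = 0.00224). JUNB fell by 0.93 (adjusted p = 0.00284), DUSP1 by 1 (adjusted p = 0.00484), ATF3 by 1.04 (adjusted p = 0.00153) and IRS2 by 0.96 (adjusted p = 0.0315). JUNB was detected on 1 of the 3 induced arrays. In the ALKBH4 line ATF3 read 10.51, 10.19 and 10.02 uninduced and 9.62, 9.71 and 9.74 induced, which did not overlap, but the difference of -0.55 ± 0.16 did not pass (adjusted p = 0.999). FOS, JUNB and ATF3 encode transcription factors of the immediate early response, DUSP1 a phosphatase of mitogen-activated kinases and IRS2 an insulin receptor substrate, and all of them also respond to signals other than cAMP. Without uninduced replicate 1 the list gave 1 higher and 8 lower, with 23.7% and 20.2% of all named genes. With it as the sole uninduced array FOS was at -0.64, JUNB at -0.74, DUSP1 at -0.64, ATF3 at -0.89 and IRS2 at -0.17. Of 11 CREM targets of the testis 2 were tested and neither passed, LDHC at -0.22 and SPATA18 at -0.45. SPATA18 passed without uninduced replicate 1 (-0.74, adjusted p = 0.00111).

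**Figure D5:**
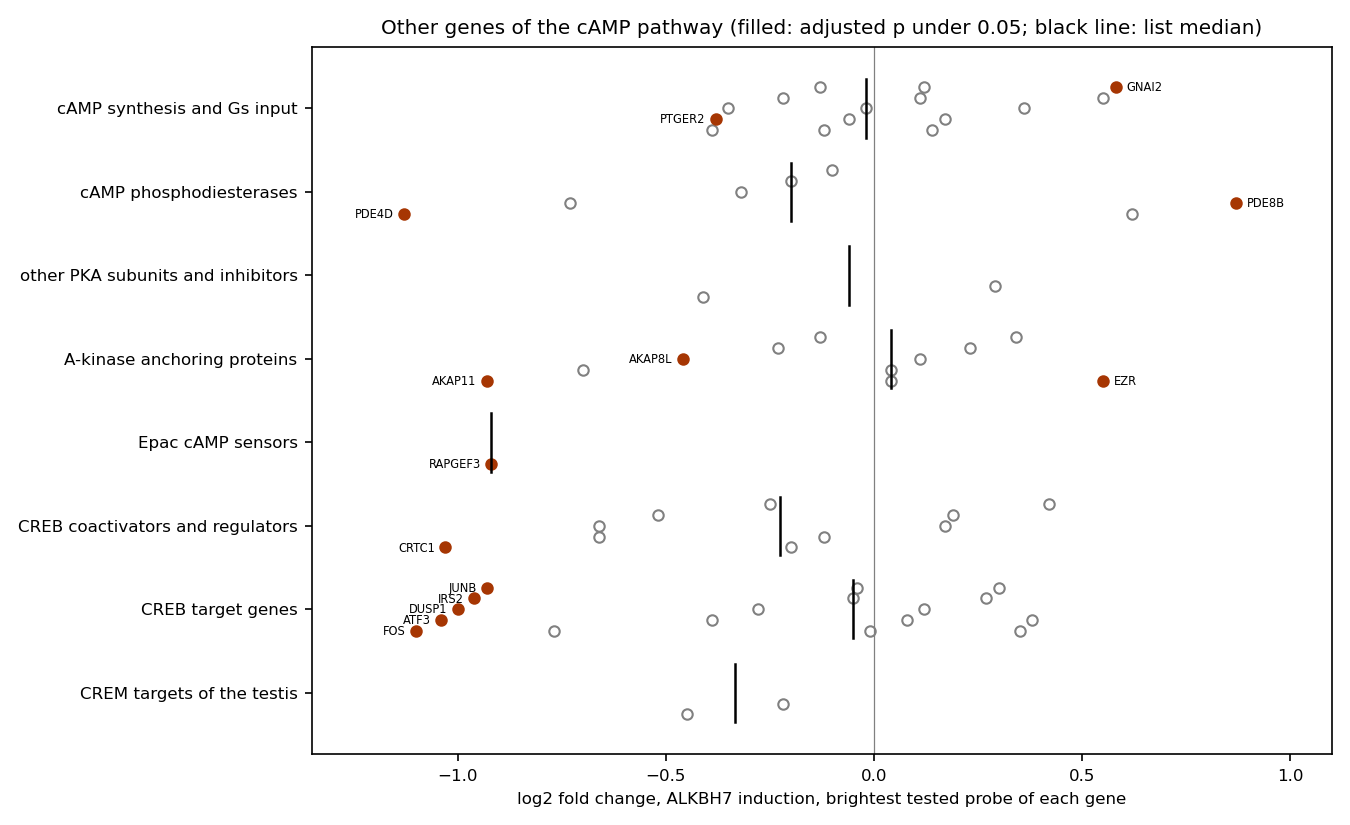
Log2 fold change on ALKBH7 induction (horizontal axis) of the tested genes of each list (vertical axis), at the brightest probe, with filled, named points past an adjusted p of 0.05 (those of PTGER2, PDE4D and CRTC1 are fitted values of probes undetected on the induced arrays) and a black line at the list median. Among CREB target genes the filled points, FOS, ATF3, DUSP1, IRS2 and JUNB, lie between -1.1 and -0.93, whereas the list median is -0.05.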

How the data were processed

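Expression in 12 samples was profiled on Illumina HumanWG-6 v3 BeadChips, 1 array each. The deposited main table, written by the authors with GenomeStudio, gives for each probe and array an unnormalized bead intensity in fluorescence units and a detection p-value against negative control beads. A further deposited table holds intensities that the authors quantile normalized, used as an alternative. The study called genes by rank product, with a q-value cutoff and a fold cutoff for each line. Rank product counts given here are from a rerun on the tested probes with the same cutoffs. In both lines these probe counts were lower than the gene counts of the study, and the reason was not tested. Calls by limma had no fold cutoff, so the counts of both tests are not directly comparable.

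Here these intensities were quantile normalized over the 12 arrays jointly, then converted to log2 with no background correction. Probes with a detection p under 0.01 in at least 3 arrays were kept. Linear models (lmFit and eBayes of limma 3.58.1, run in R 4.3.3) estimated the mean of each of the 4 groups, all contrasts being adjusted by Benjamini-Hochberg over 15444 probes, with a threshold of 0.05. The groups shared 1 estimate of spread per probe, so the spread of the uninduced ALKBH7 arrays also enters the SE in the ALKBH4 line. At PRKAR1A ILMN_1738632 that SE was 0.44, and 0.14 without uninduced replicate 1 of the ALKBH7 line. Differences between 2 probes of a gene were fitted likewise over 3343 pairs. Probe symbols came from the platform annotation, in which 27578 probes had 1 symbol, 13 several and 21212 none. Probe sequences were not used here. Scripts were tested on simulated data. Figures were drawn with Python 3.11.15 and matplotlib 3.10.9.

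The members and gene lists were chosen with earlier results of these data known. Named were all member probes, the induced genes, up to 4 called genes of each list by adjusted p or otherwise its brightest genes, and the 5 genes most correlated with PRKAR1A. IRS2 among the CREB targets, the neighbours of the second PRKAR1A probe and single list genes quoted under other sets of arrays were named after their values were seen. Alternatives were cyclic loess or median scaling in place of quantiles, normexp with offset 50, an offset of 16 in the logarithm, no detection filter or one on all 12 arrays, the authors' normalized values, fits of each line alone, with a replicate block, or with trended and robust eBayes, rank product, and each array left out. Leaving out uninduced replicates 2 and 3 of the ALKBH7 line together, and the lists without uninduced replicate 1, were added after seeing the data. In the former the lone uninduced array was assumed to vary like the other groups.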

Additional observations from a re-analysis of the deposited data

How the results depend on the processing

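The count of called probes among the 10 tested ones on ALKBH7 induction, 4 with all arrays, was 0 with median scaling, 1 with each line alone, 1 with rank product (PRKAR1A ILMN_2389590), 1 without uninduced replicates 2 and 3, and 0 to 7 with each array left out. Over all probes this induction gave 3710 calls, and 1, 1698, 265 and 1968 under the same settings, and 1278 (without induced replicate 2) to 6838 (without uninduced replicate 1) with each array left out. Cyclic loess gave 1307 higher and 2039 lower probes against 1824 and 1886. Of the 4 probe pairs 1 passed, 5 of 24 with no filter, and 1 to 3 with each array left out. The share of all pairs passing was not counted under these other settings. The probes called for ALKBH4 were 0, with 0 to 0 for all probes, the 10 and their pairs with each array left out, and 6 over all probes by rank product.

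The difference between inductions, 11 calls in all, gave 1 with median scaling, 7 with cyclic loess, 75 with no filter, 4 with detection on all arrays, 1 with the authors' values, 51 with trended and robust eBayes, and 1 (without ALKBH4 uninduced replicate 1) to 3358 (without ALKBH7 uninduced replicate 1) with each array left out, where 0 to 4 of the 10 passed. Between uninduced lines 3 of the 10 and 5930 in all passed. With no filter 5 of all 22 probes of these genes and 8988 of 48803 passed, and the counts were 1397 in all with median scaling (354 higher and 1043 lower, against 3076 and 2854), and 3 to 5 and 4176 to 6525 with each array left out. With median scaling the median of all probes was 0.28 for ALKBH4 (0 otherwise), -0.21 for the difference (0.01 otherwise) and -0.24 between uninduced lines (-0.03 otherwise). The cause of these changes was not tested. The authors' values and each line alone gave no value between uninduced lines.

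Same-numbered arrays deviated together unevenly (r from -0.13 to 0.41), and whether the numbers mark pairs was not settled by these values. The main fit used no pairing. With the replicate number as a block the 10 probes gave 4 calls for ALKBH7, 0 for ALKBH4, 0 for the difference and 3 between lines, and all probes gave 3337, 0, 1 and 5596. In either induction, no tested probe of these genes that was called with all arrays changed sign. PDE4D, called as lower, was at 0.02 with uninduced replicate 1 of the ALKBH7 line as the sole uninduced array. PRKAR1B, PRKAR2A and PRKACB were undetected on several arrays, so their differences are limited by signal over background.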
